A study of Mus musculus with 6 samples.

Results

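The genes described here encode ubiquitin-conjugating enzymes (Ube2 genes) and 3 families of deubiquitinases, the ubiquitin-specific proteases (Usp genes), the ovarian tumor-domain proteases (Otud genes) and the ubiquitin C-terminal hydrolases (Uchl genes). They were chosen by gene symbol alone, as every gene whose symbol starts with Ube2, Otud, Uchl or Usp followed by a digit and that a probe set of the array names alone. This gave 91 of the 17097 genes named alone, measured by 193 probe sets. They were 33 Ube2, 47 Usp, 7 Otud and 4 Uchl genes. A symbol is not a function, and Ube2cbp, for example, encodes a protein that binds an E2. RefSeq held 90 of them by gene ID, 89 as protein coding and Ube2d-ps, named as a pseudogene, as lncRNA, while Usp46os2, a transcript antisense to Usp46, was not among those matched.

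RNA came from gastrocnemius muscle of male ICR mice, 7 weeks old at the start, in which the sciatic nerve of both legs had been cut, and the muscle was taken on day 14. The MA group (3 arrays) ate a diet with 0.27% maslinic acid, a triterpene of olives, from before surgery until the end, and the control group (3 arrays) ate a control diet without it. The labels name AIN-93G as the diet fed to the mice. Both groups were denervated, so no comparison with innervated muscle was made. Separate mice or pooled RNA per array are not stated in the labels, so the p-values below measure only the spread between these arrays.

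In ubiquitination an activating enzyme (E1) charges a conjugating enzyme (E2) with ubiquitin, and a ligase (E3) directs the E2 to a substrate. Deubiquitinases remove or shorten the ubiquitin chains and free ubiquitin for reuse. In wasting muscle this system marks myofibrillar and other proteins for degradation by the proteasome, and most attention has gone to its ligases, while each E2 serves many of them.

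The promoters of 71 of the 91 genes were held in RefSeq (81 windows of 300 bases, 250 before to 50 after a start in the table, build GRCm38.p6). A total of 4 are shown, those of Otud1 (largest rise), Ube2z (the largest fall among genes with a promoter in the table), and Ube2a and Ube2b, close relatives whose brightest probe sets gave different results. Capitals mark the E-box CACGTG, the FoxO core GTAAACA and the GAS-type motif TTCNNNGAA.
Otud1, chr2:19657481-19657780, plus strand: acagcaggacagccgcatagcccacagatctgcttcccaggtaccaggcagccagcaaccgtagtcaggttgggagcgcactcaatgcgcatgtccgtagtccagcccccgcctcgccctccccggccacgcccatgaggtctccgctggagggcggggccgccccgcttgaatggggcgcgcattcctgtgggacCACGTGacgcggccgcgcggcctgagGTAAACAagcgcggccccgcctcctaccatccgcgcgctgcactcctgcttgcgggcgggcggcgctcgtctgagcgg
Ube2z, chr11:96065315-96065614, minus strand: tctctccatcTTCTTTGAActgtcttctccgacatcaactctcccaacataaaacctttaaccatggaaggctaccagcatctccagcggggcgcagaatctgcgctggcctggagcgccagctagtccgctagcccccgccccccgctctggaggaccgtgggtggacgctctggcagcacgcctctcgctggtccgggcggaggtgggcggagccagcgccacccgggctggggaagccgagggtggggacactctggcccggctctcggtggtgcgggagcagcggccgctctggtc
Ube2a, chrX:36874045-36874344, plus strand: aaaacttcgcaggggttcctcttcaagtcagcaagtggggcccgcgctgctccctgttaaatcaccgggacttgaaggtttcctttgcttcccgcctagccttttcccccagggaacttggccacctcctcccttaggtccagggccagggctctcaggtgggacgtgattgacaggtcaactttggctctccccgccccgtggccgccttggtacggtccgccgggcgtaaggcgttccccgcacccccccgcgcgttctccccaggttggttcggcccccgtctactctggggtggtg
Ube2b, chr11:52000737-52001036, minus strand, 1 of its 2 windows: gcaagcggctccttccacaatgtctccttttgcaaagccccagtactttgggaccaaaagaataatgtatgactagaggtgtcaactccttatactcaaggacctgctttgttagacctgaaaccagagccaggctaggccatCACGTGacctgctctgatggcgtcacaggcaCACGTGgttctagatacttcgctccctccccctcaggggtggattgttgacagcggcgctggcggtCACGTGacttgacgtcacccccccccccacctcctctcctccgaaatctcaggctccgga
The Otud1 promoter held an E-box at -54 and a FoxO core at -28, counted in bases from the start on which the window is placed to the first letter of the motif. The promoter of Ube2z held 1 GAS-type motif, TTCTTTGAA, at -240. None of the motifs searched was found in the Ube2a promoter, while the printed Ube2b window held 3 E-boxes, at -107, -76 and -10, and the other Ube2b window held no motif. Both Ube2b windows lie inside the span RefSeq gives for the gene (51985138 to 52004145), so their positions are not distances from its outer end, whereas the other 3 printed windows are placed on the gene's outer start. On both strands, the E-box was found in 9 of 81 windows (11.1%, against 7.15% of all 32851 promoters), the GAS-type motif in 8 (9.88%, against 8.3%), the interferon-response core GAAANNGAA in 5 (6.17%, against 8.56%) and the FoxO core in 2, Otud1 and Ube2h (2.47%, against 3.65%). The FoxO core was added to the search after the Otud1 sequence had been seen. These are matches of letters and do not show that a factor binds there.

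The arrays were closely matched, with Pearson's r across probe sets of 0.9992 to 0.9997 within groups and 0.9934 to 0.9937 between them, and the median SD of the 91 genes within a group was 0.028 on the log2 scale. Values are log2 RMA signals, each gene is represented by its brightest probe set, and a difference is the MA mean minus the control mean. A gene was called at an adjusted p under 0.05 (limma, Benjamini-Hochberg over all 45037 probe sets). The control RNAs added at hybridization were higher in the MA group in 18 of 18 probe sets, by a median of 0.17 and at most 0.35 (1.28-fold), and scaling the arrays on them moved the median difference of all genes by -0.18. Differences are therefore given relative to the RMA scaling, under which that median was 0.0063, and a rise smaller than this shift turns its sign under the other scaling. The brightness of different probe sets depends on their probes and was not used to order transcripts by abundance.

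Higher signals were more frequent than lower ones among these genes. In the MA group 37 of 91 genes were higher (40.7%, against 24.7% of all genes) and 21 were lower (23.1%, against 23% of all genes), while 33 were not called. Together 58 were called (63.7%, against 47.8%). The median difference was 0.050, against 0.0063 for all genes. Past a fold of 1.2, 11 were higher (12.1%, against 5.92%) and 4 were lower (4.4%, against 6.87%), a split that scaling on the hybridization controls turned to 2 higher and 18 lower. The values of the groups did not overlap in 65 genes (71.4%, against 58.6%). A total of 80 genes were above background in at least 1 group, and the other 11, Ube2c, Ube2l6, Ube2u, Uchl4, Usp17la, Usp17lc, Usp26, Usp27x, Usp43, Usp46os2 and Usp50, were not. Of the 80, 35 were higher and 19 lower (43.8% and 23.8%, against 28.4% and 28.8% of the 12342 genes above background, 57.2% of which were called either way), a description only, since the filter uses the group means. In whole muscle, fewer cells of a type and less RNA per cell cannot be told apart.

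By family, 17 of the 33 Ube2 genes were higher (51.5%), 7 were lower (21.2%) and 9 were not called, with a median of 0.098. Of all genes 24.7% were higher and 23% lower (47.8% called), with a median of 0.0063. Of the 47 Usp genes 16 were higher (34%), 13 were lower (27.7%) and 18 were not called, with a median of 0.049. The 7 Otud genes included 2 higher and 1 lower (42.9% called), and the 4 Uchl genes included 2 higher and none lower (50% called). The split between higher and lower depends on the scaling, since 14 were higher and 57 lower when the arrays were scaled on the hybridization controls, with 6.36% of all genes higher and 77.5% lower. It also depends on the probe set. The mean of a gene's probe sets gave 30 higher and 25 lower (against 25.6% and 22.9% of all genes). The second brightest probe set gave 27 and 22 (against 23.3% and 20.3% of all genes). Under both rules the 35 of the 91 genes with 1 probe set kept that probe set.

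**Figure D1:**
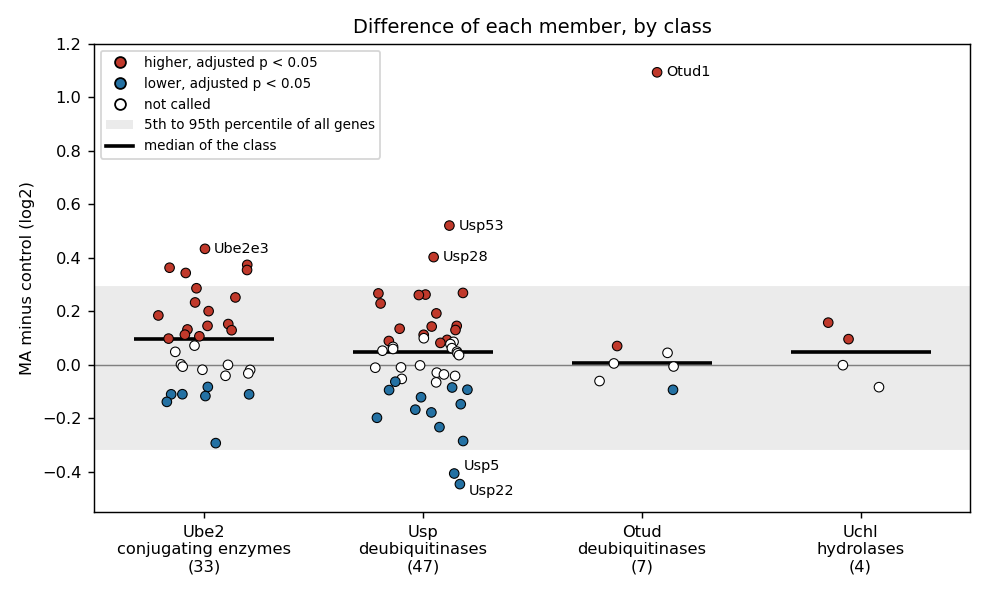
Difference between MA and control (log2, vertical axis) for each of the 91 genes by family (horizontal axis), with 1 point per gene, bars at the family median and a grey band from the 5th to the 95th percentile of all 17097 genes. Otud1 stands alone at 1.09, the next largest rise is 0.52 (Usp53), and Usp22 and Usp5 are lowest at -0.45 and -0.41. Points above 0 by less than the shift of -0.18 turn sign when the arrays are scaled on the hybridization controls.

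Otud1, a deubiquitinase of the OTU type linked to NF-kB and TGF-beta signalling, showed the largest difference. Its gene lies on chromosome 2 (19657731 to 19661279, GRCm38.p6). Its signals were 8.40, 8.53 and 8.46 on the MA arrays and 7.36, 7.37 and 7.39 on the control arrays. Every MA array lay more than 1 log2 unit above every control array. The difference of 1.09 (SE 0.033, 2.13-fold, adjusted p 8.20e-08 by limma) came from the 1 probe set of the gene.

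Usp53, a ubiquitin-specific protease found at tight junctions, read 6.75, 6.70 and 6.75 in the MA group and 6.22, 6.18 and 6.24 in the control group. The groups were far apart, with a difference of 0.52 (SE 0.025, 1.43-fold, adjusted p 1.34e-06). Ube2e3, an E2 with an extended N-terminus, read 7.71, 7.69 and 7.72 against 7.32, 7.25 and 7.26, a difference of 0.43 (SE 0.027, 1.35-fold, adjusted p 5.34e-06). Another, dimmer probe set of Ube2e3 was higher as well, by 0.17. Usp28, a deubiquitinase known for stabilizing Myc, read 8.93, 8.92 and 8.93 against 8.50, 8.55 and 8.52. Its 3 MA values lay within 0.01 of each other, and the difference was 0.40 (SE 0.022, 1.32-fold, adjusted p 2.88e-06).

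The other rises past a fold of 1.2 were found in both enzyme types. Ube2j1, an E2 anchored in the endoplasmic reticulum, differed by 0.37 (1.30-fold), although its other probe set gave -0.02 (adjusted p 0.585). Ube2a, an E2 of DNA damage tolerance and of the N-degron pathway, differed by 0.35 (1.28-fold). Ube2t, the E2 of the Fanconi anemia pathway, differed by 0.36, near background, with control values between 4.09 and 4.37 and MA values between 4.57 and 4.62. Ube2d-ps, a noncoding gene whose probes may also bind transcripts of the Ube2d genes, differed by 0.34, while its other probe set was lower by 0.20. Ube2e1, which read 9.65, 9.63 and 9.63 against 9.35, 9.35 and 9.35, differed by 0.29 (1.22-fold). Usp45 and Usp13 each differed by 0.27, the former with 0.04 (not called) on the next brightest of its 3 probe sets. Usp13 (1.203-fold) was the last gene past the limit and Usp2, a deubiquitinase under circadian control (0.26, 1.1998-fold), the first below it.

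Usp22, the deubiquitinase of histone H2B in the SAGA coactivator complex, fell most. Its gene lies on chromosome 11 (61151781 to 61175059). It read 6.65, 6.67 and 6.67 in the MA group and 7.11, 7.10 and 7.12 in the control group, so that all MA values lay below all control values. The difference was -0.45 (SE 0.021, 1.36-fold lower, adjusted p 1.13e-06), and its other probe set was lower by 0.15. Usp5, which takes apart unanchored ubiquitin chains, read 7.68, 7.67 and 7.66 against 8.07, 8.07 and 8.08. This difference of -0.41 (SE 0.020, 1.33-fold lower, adjusted p 1.56e-06) came from the 1 probe set of the gene.

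Ube2z, an E2 charged by the activating enzyme Uba6, read 7.12, 7.19 and 7.15 against 7.41, 7.48 and 7.45, a difference of -0.29 (SE 0.029, 1.22-fold lower). Its other 2 probe sets, near or below background, gave -0.01 and 0.01 and were not called. Usp37, a deubiquitinase of the cell cycle, was lower by 0.28 at a dim signal, with the controls spread from 4.61 to 4.82. The smaller falls were in Usp20 (-0.23), Usp10 (-0.20), Usp24 (-0.18), Usp48 (-0.17), Usp1 (-0.15), Usp4 (-0.12) and Ube2d2a (-0.12). Lack of overlap between the groups was a condition for naming these falls, and 58.6% of all genes met it. Usp1, which removes ubiquitin from the DNA repair protein FANCD2, was lower on each of its 3 probe sets. Ube2l6 differed by -0.14 with all 6 values below background, which gives no measured level.

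**Figure D2:**
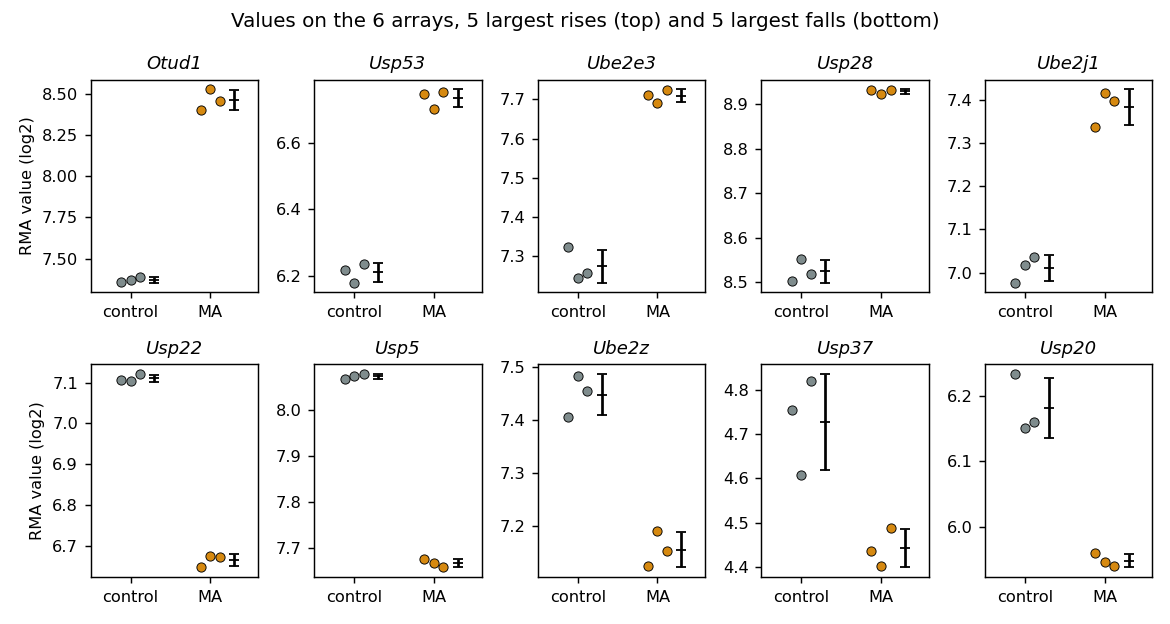
RMA value (log2, vertical axes that differ in range) of the 5 largest rises and 5 largest falls on each control and MA array, with 1 point per array and bars for the mean and SD of 3 arrays. The rises and falls were picked among called genes without overlap, so the 2 groups are apart in all 10. The widest spread is in Usp37, whose control values run from 4.61 to 4.82.

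Of 19 genes listed for a tie to muscle wasting 18 were measured, with 10 higher, 4 lower and 4 not called (77.8% called, against 47.8% of all genes and 57.2% of those above background), and a median of 0.14. Ube2b, the E2 that works with N-degron ligases in wasting muscle, read 10.81, 10.81 and 10.81 in the MA group and 10.79, 10.81 and 10.82 in the control group. These values overlapped, and the difference was 0.00 (SE 0.021, adjusted p 0.953). Ube2k, which builds degradative chains on its own, likewise gave 9.29, 9.28 and 9.29 against 9.28, 9.28 and 9.29 (difference 0.00, SE 0.020, adjusted p 0.998). Both turned lower when the arrays were scaled on the hybridization controls. The dimmer probe sets of Ube2b gave -0.03 (not called) and -0.17 (called). Those of Ube2k gave -0.09, -0.08 and -0.10 (called) and 0.04 (not called), all but the first of them below background.

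The Ube2d genes encode E2 enzymes that many ligases, muscle ligases included, can use. Ube2d1 read 8.81, 8.81 and 8.79 against 8.55, 8.56 and 8.54 and was higher by 0.25 (SE 0.021, adjusted p 2.74e-05). Ube2d3 read 11.12, 11.15 and 11.13 against 10.99, 11.01 and 11.01 and was higher by 0.13, which turned to -0.05 under scaling on the hybridization controls. Ube2d2a read 10.20, 10.21 and 10.19 against 10.31, 10.33 and 10.30 and was lower by 0.12. These 3 closely related transcripts therefore gave both signs on their brightest probe sets, under the RMA scaling.

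Other E2 genes of this list differed by smaller amounts. Ube2h, an E2 of the GID ligase, was higher by 0.18 on its brightest probe set and was called higher on all 4. Ube2g1, an E2 of endoplasmic reticulum degradation, was higher by 0.15, a sign that turned (to -0.03) under scaling on the hybridization controls. Ube2o gave -0.02 (adjusted p 0.642). Among the deubiquitinases, Usp2 read 8.49, 8.48 and 8.53 against 8.24, 8.22 and 8.25. Usp25, a relative of Usp28, read 8.44, 8.43 and 8.40 against 8.15, 8.18 and 8.15, higher by 0.26 (SE 0.023, adjusted p 4.34e-05). Usp19, a deubiquitinase induced in atrophying muscle, read 8.14, 8.16 and 8.19 against 8.26, 8.27 and 8.25, lower by 0.09, with -0.25, -0.17 and 0.11 on its other 3 probe sets, all called. Usp14, which sits on the proteasome, was lower by 0.06 with an adjusted p of 0.0484, and lost the call whichever of the 6 arrays was left out. Uchl1, best known from neurons, gave -0.08 (adjusted p 0.0537).

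All 4 genes listed for the interferon and ISG15 system were called, 3 of them higher. Of all genes 47.8% were called, and 57.2% of those above background. The lower gene was Ube2l6, with every value below background, which gives no measured level. Ube2e1 is described above. Ube2e2 read 4.97, 5.09 and 5.12 against 4.78, 4.88 and 4.91, higher by 0.20. Usp18, the protease that removes ISG15, read 4.27, 4.20 and 4.23 against 4.15, 4.18 and 4.12, all close to the background of 3.95. The groups did not overlap, but the difference was 0.08 (adjusted p 0.046) and turned to -0.09 under scaling on the hybridization controls. By the methods' one-way test only 2 of the 4 were called, Ube2e1 and Ube2l6.

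Among genes bound to the proteasome or to endoplasmic reticulum degradation, 5 of 10 were higher and 3 lower (80% called). Of all genes 47.8% were called, and of those above background 57.2%. Ube2j1 was higher and its relative Ube2j2 was lower by 0.08, while Uchl5, a deubiquitinase of the proteasome, was higher by 0.10 on its brightest probe set (negative under the scaling on hybridization controls) and lower by 0.48 on the other, which was below background. In the list for TGF-beta and BMP signalling 4 of 6 were higher (83.3% called), Otud1, Usp15, Usp9x and Uchl5, all but Otud1 by less than the shift of the other scaling, and only Usp4 was lower. The list for NF-kB and inflammatory signalling held 7 higher and 5 lower of 19, that for cell division and DNA repair 5 and 3 of 14, and that for autophagy and mitochondrial quality 2 and 3 of 8. The called shares of these 3 lists, 63.2%, 57.1% and 62.5%, lay near the 57.2% of all genes above background, and all these splits rest on the RMA scaling. Ube2n and Ube2v1, partners in building signalling chains, were not called on their brightest probe sets, with differences of -0.04 and -0.03, while the other probe set of Ube2v1 was lower by 0.17. In the list of E2 enzymes of ubiquitin-like proteins and inactive E2 variants, 2 of 4 were higher (Ube2f by 0.13 and Ube2v2 by 0.11, both turning sign under scaling on the hybridization controls) and 1, Ube2l6, was lower.

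Further rises were found in Ube2q2 and Usp16, each by 0.23. Ube2q2 read 8.44 on each MA array and 8.20, 8.19 and 8.23 on the control arrays. Usp16, a histone H2A deubiquitinase, read 8.12, 8.08 and 8.07 against 7.87, 7.86 and 7.85 and was called higher on both of its probe sets. Usp32 was higher by 0.19 on its brightest probe set and lower by 0.16 on the other. Uchl3, a ubiquitin hydrolase that also processes Nedd8, read 8.07, 8.09 and 8.08 against 7.92, 7.92 and 7.93, and Usp9x read 8.80, 8.82 and 8.81 against 8.68, 8.67 and 8.68. Their rises of 0.16 and 0.14 were several times the spread of the arrays but lay below the shift of the other scaling, under which they turned sign. Rises of 0.07 to 0.14 in Usp12, Usp34, Usp31, Usp29, Ube2cbp, Ube2u, Usp17lc and Otud6b turned sign there too, and of these all but Usp34 lost the call when MA 2 was left out.

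The remaining falls were small. Ube2r2, a Cdc34-type E2 of cullin ligases, read 9.12, 9.15 and 9.14 against 9.24, 9.24 and 9.25, a difference of -0.11. Ube2s, which elongates chains for the anaphase-promoting complex, read 9.25, 9.29 and 9.27 against 9.37, 9.39 and 9.38, also a difference of -0.11, while its partner Ube2c was not above background. Ube2q1 (-0.11), Otud4 (-0.09), Usp27x (-0.09, below background) and Usp8 (-0.08), a deubiquitinase of endosomal sorting, were lower too. The 33 genes that were not called had differences between -0.08 (Uchl1) and 0.10 (Usp38) on their brightest probe sets. They include Usp7, a deubiquitinase of the p53 regulator Mdm2 (-0.05, adjusted p 0.106), and Usp30, which acts on mitochondria (0.09, adjusted p 0.0839). A missed threshold does not show that these genes did not differ, and other probe sets of some of the 33 were called. The other set of Usp46 was higher by 0.42 (limma, adjusted p 0.00024), and that of Usp36 was lower by 0.27 (adjusted p 4.4e-05).

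**Figure D3:**
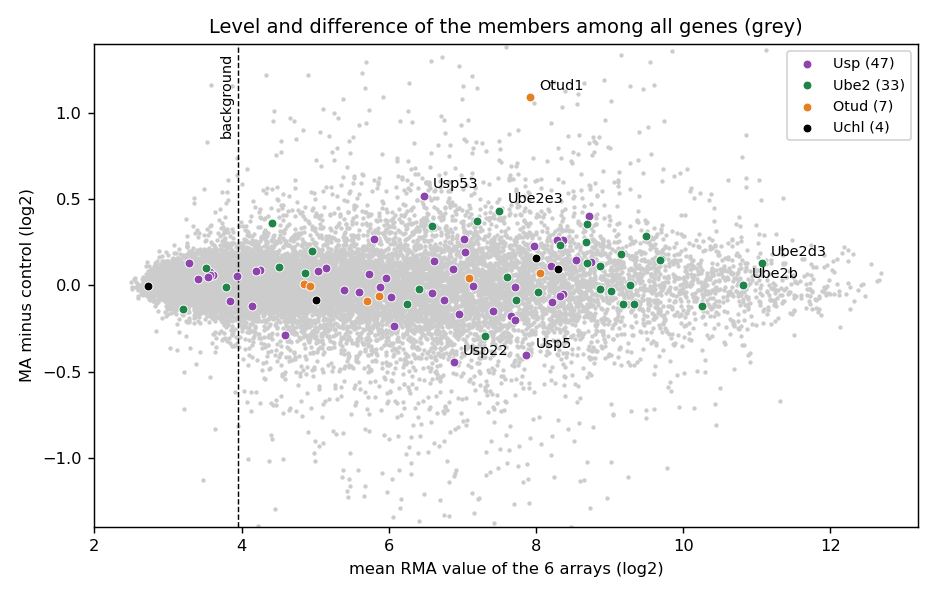
Mean RMA value of the 6 arrays (log2, horizontal axis) and difference between MA and control (log2, vertical axis) of all genes in grey, 51 of them outside the range drawn, and of the 91 genes in color by family. The dashed line is the background of 3.95, and Ube2d3 and Ube2b at the right show differences of 0.13 (which turns sign under scaling on the hybridization controls) and 0.00.

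The probe sets of a gene did not always give the same result. Of the 56 genes with more than 1 probe set, 11 were called the same way on all of them (Ube2e3, Ube2g1, Ube2h, Usp1, Usp2, Usp9x, Usp15, Usp16, Usp22, Usp37 and Usp48). In 9 genes (Ube2d-ps, Ube2d2a, Ube2l3, Uchl5, Usp3, Usp7, Usp19, Usp27x and Usp32) probe sets were called in opposite directions, though in none past 1.2-fold both ways. Ube2l3, an E2 of the parkin ligase, was higher by 0.15 on its brightest probe set, with 9.78, 9.78 and 9.76 against 9.64, 9.60 and 9.62, and lower by 0.23, 0.24 and 0.14 on its other 3. Ube2d2a gave -0.12, 0.06, -0.22, 0.54 and -0.19 on its 5 probe sets, from brightest to dimmest. Ube2a gave 0.35 on the brightest and 0.01 (adjusted p 0.73) on the other. The 7 probe sets of Ube2d3, by contrast, ranged from 0.01 to 0.35 and 6 were called higher. Which transcript ends each probe set reads was not tested. The brightest probe sets of 9 genes, among them Ube2h, Ube2s and Uchl3, carry a suffix that marks probes able to bind other transcripts.

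**Figure D4:**
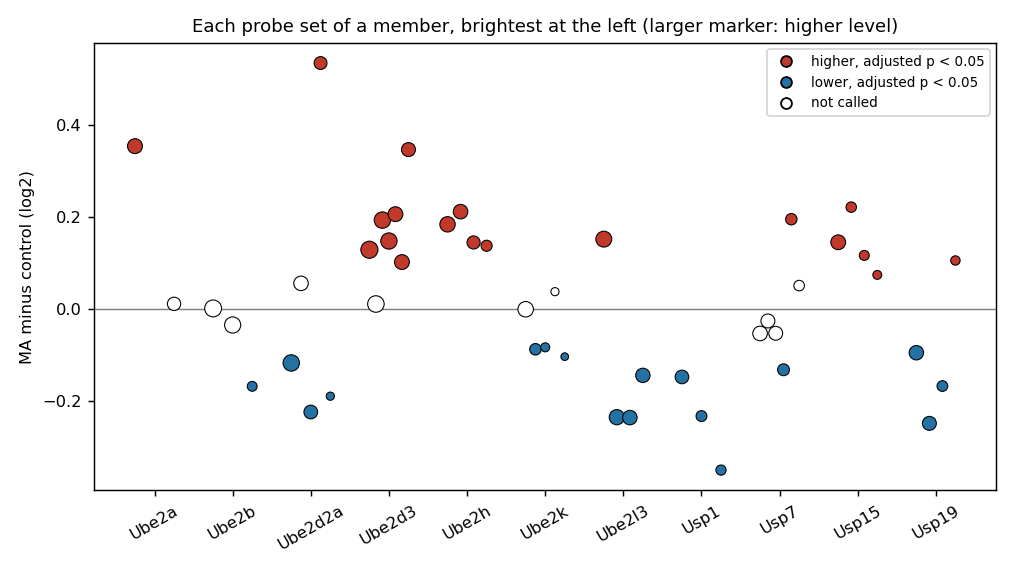
Difference between MA and control (log2, vertical axis) of every probe set of 11 genes with several probe sets (horizontal axis), brightest at the left and larger markers for higher signals. The sets of Ube2d2a and Ube2l3 lie on both sides of 0, while those of Usp1 are all lower and those of Usp15 all higher under the RMA scaling.

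Related genes were compared pair by pair, by the difference between their values on each array. In 18 pairs the two-sided exact permutation test over the 6 arrays gave 0.1 in 14, the smallest p that 3 against 3 allows, and 0.129 after adjustment over the 18, so no pair could pass 0.05. Usp5 and Usp13, the nearest relatives in their family, moved in opposite directions, and Usp5 changed by -0.67 (SE 0.054) relative to Usp13. Ube2j1 changed by 0.46 (SE 0.019) relative to Ube2j2, and Ube2a by 0.35 (SE 0.011) relative to Ube2b. Usp4 changed by -0.27 relative to Usp15 and Ube2q1 by -0.34 relative to Ube2q2. A constant shift of an array leaves such a difference unchanged, but the values of Ube2a and Ube2j1 depend on the probe set, as given above. The other probe set of Ube2q1 gave 0.05 (not called), and Usp4 (4.09 against 4.21) lay close to the background of 3.95. Of the 18 pairs, 5 were called in opposite directions, 4 the same way, 7 with 1 gene called and 2 with none. Unlike the difference within a pair, these counts depend on the scaling. Under scaling on the hybridization controls Ube2l3 (-0.02), Ube2q2 and Usp15 lost their calls, so their pairs were no longer called in opposite directions. The 5 include Ube2l3 and Ube2l6, of which the latter was below background and the former was called lower on its other probe sets.

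**Figure D5:**
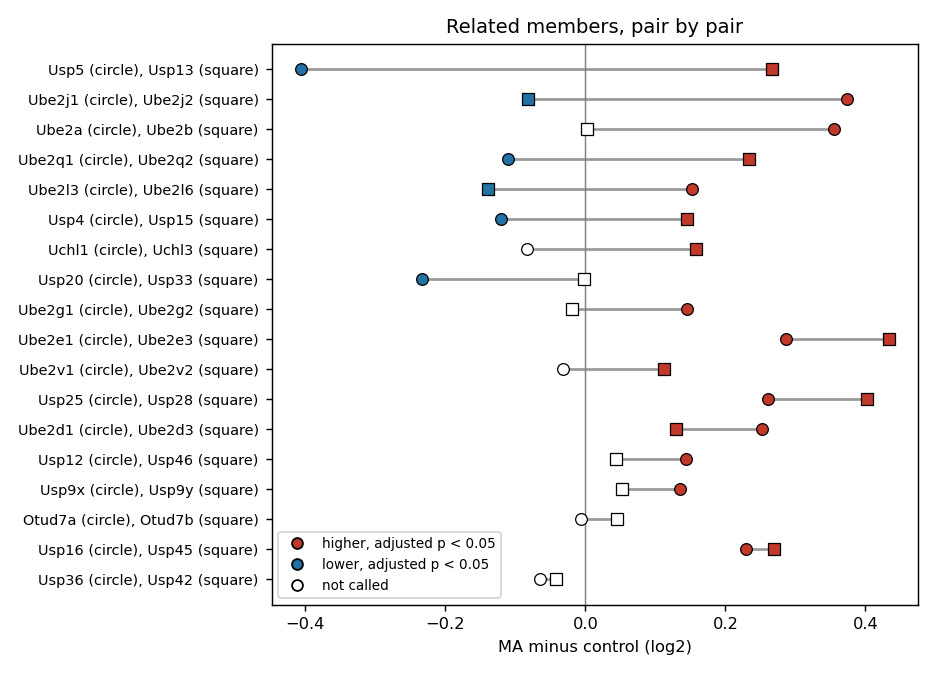
Differences between MA and control (log2, horizontal axis) of both genes of each of the 18 related pairs (rows, sorted by the distance between them). The longest line joins Usp5 at -0.41 and Usp13 at 0.27, and the shortest joins Usp36 and Usp42, neither called on its brightest probe set.

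The other genes of the pathway gave no single direction. They were grouped by list, and a list name does not show that each member has that activity. Called shares were 50% of the precursors, 57.1% of the activating enzymes and 50% of the conjugating enzymes with other names. They were 65.7% of the deubiquitinases with other names and 73.3% of the receptors and shuttles. Of all genes 47.8% were called, and 57.2% of those above background. Of 8 ubiquitin and ubiquitin-like precursors 1 was higher (Ufm1, 0.27) and 3 were lower, among them Fau (-0.15) and Nedd8 (-0.07). Of 7 activating enzymes 2 were higher, Nae1 (0.15) and Uba3 (0.06), which together form the E1 of Nedd8, and 2 were lower, among them Sae1 (-0.09). Both rises turn sign under scaling on the hybridization controls. Of 6 genes listed as conjugating enzymes with other names Ufc1 was higher (0.13, likewise turning sign), and Tsg101 (-0.11) and Atg10 (-0.42) were lower. Of 35 genes listed as deubiquitinases with other names, the Senp, Cops and Eif3 genes among them, 11 were higher and 12 lower. Cops5 was at 0.22, Eif3h at 0.09 (turning sign) and Eif3f at -0.09. Cyld, which removes signalling chains in the NF-kB pathway, was higher by 0.69 (adjusted p 8.16e-08), and was chosen after its value was seen, as were Mysm1, a histone H2A deubiquitinase lower by 0.44, and Tnfaip3, lower by 0.22. Of 15 ubiquitin receptors and shuttles 10 were lower and 1 higher, with a median of -0.14, and the brightest called were Nbr1 (-0.24), Ubxn1 (-0.14) and Tax1bp1 (-0.15).

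Markers of other cell types differed between the groups. For scale, 24.7% of all genes were called higher and 23% lower, and 57.2% of those above background were called either way. Muscle fiber markers were all above background and 7 of 11 were higher. Their summed level was 15.65 to 15.66 in the MA group against 15.55 to 15.56 in the control group (log2 of the summed signals). That rise is smaller than the -0.176 shift of scaling on the hybridization controls. So are the rises of Acta1 (0.126), Tnnt3 (0.142), Pvalb (0.152) and Ckm (0.174). Mylpf (0.185) and Tnni2 (0.187) rose by barely more than that shift, and Myh7 by 1.14. Macrophage markers were lower in 12 of 15 (summed 10.97 to 11.01 against 11.76 to 11.79), endothelial markers in 9 of 10 (8.73 to 8.77 against 8.95 to 9.002) and T cell and NK cell markers in 8 of 10. Tendon markers were higher in 8 of 8 (10.67 to 10.70 against 9.49 to 9.52) and fibroblast markers in 5 of 8 (12.48 to 12.48 against 12.21 to 12.23). Schwann cell markers were higher in 4 and lower in 2 of 7 and dividing cell markers higher in 1 of 9. Neuron markers were lower in 2 of 9, of which 3 were above background. Adipocyte markers were higher in 3 and lower in 1 of 4, but the rises of Lep and Pparg were below background. Their summed level was lower in the MA group (11.07 to 11.09 against 11.24 to 11.26). The part of these cell types in the differences of the ubiquitin genes was not tested.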

How the data were processed

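RNA of gastrocnemius muscle was hybridized to 6 Affymetrix GeneAtlas mouse PM arrays, 3 per group. The authors made the deposited log2 values with RMA (background correction, quantile normalization and summary of probes). The submitters' processing notes name Expression Console and Transcriptome Analysis Console without versions. Of 45141 probe sets, 104 array controls were set aside and 45037 were fitted in R 4.3.3 with limma 3.58.1 (lmFit, eBayes, no trend, robust moderation or covariate). Probe sets were named from the platform annotation of the array, 28898 naming 1 gene, 551 several and 15588 none, and a gene's brightest probe set stood for it. Background was 3.95, the highest of 22 control probe sets for nonspecific binding, without the set of highest GC content (7.24), and a gene was above it if either group mean was. A marker list's summed level is log2 of its summed linear signals. The number of arrays limits the precision. The steps were tested on simulated data.

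Named are the 12 largest rises and 12 largest falls among called genes without overlap, the 8 brightest genes, all listed genes of wasting and of the interferon system, genes with probe sets called past 1.2-fold in opposite directions (none), and the 3 brightest called genes of each other pathway list. Other genes named were chosen after their values were seen. The genes and lists were chosen with earlier results of these data known. Alternatives were the methods' one-way test, other moderation, scalings, weights, filters and probe set rules, a replicate block and leaving out each array. Usp11, Usp35, Usp44, Usp51 and Ube2m were not analysed here. Promoters came from RefSeq (GRCm38.p6).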

Additional observations from a re-analysis of the deposited data

How the results depend on the processing

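Shifting each array by its hybridization controls moved the most values. With it 14 genes were higher and 57 lower, 2 higher and 18 lower past 1.2-fold, and the calls were 7 among the Otud genes, 8 among the precursors and 5 among the conjugating enzymes with other names. It turned Ube2d3 to -0.0461, Ube2b to -0.17, Ube2l3 to -0.0231, Ube2g1 to -0.0299, Ube2k to -0.18 and Usp18 to -0.0935. The mean of a gene's probe sets gave 30 higher and 25 lower (45 of 58 calls kept, 11 lost, 2 turned), 7 higher and 2 lower past 1.2-fold and turned Ube2d2a to 0.0126, Ube2b to -0.0666 and Ube2l3 to -0.12. The second brightest probe set gave 27 higher and 22 lower (37 kept, 16 lost, 5 turned), 7 higher past 1.2-fold and turned Ube2j1 to -0.0176, Ube2d-ps to -0.20, Usp20 to 0.0515, Usp24 to 0.00445, Ube2d2a to 0.0564, Ube2l3 to -0.23 and Ube2k to -0.0870. Genes with 1 probe set (35 of the 91) kept it under both probe set rules, so the kept counts say little about them. Of all genes 25.6% were higher and 22.9% lower by the mean, and 23.3% and 20.3% by the second brightest. A fold over 1.5 left 1 higher (Otud1) and 0 lower, and a fold over the largest hybridization control (1.28) left 7 and 2. By the methods' one-way test 2 genes of the interferon list were called, and 5 conjugating enzymes with other names with an eBayes trend. Quantile normalization again gave 0.37 for Ube2a minus Ube2b and 0.14 for Ube2g1 minus Ube2g2. The causes were not tested. Leaving out each array gave 30 to 37 higher, 15 to 20 lower and 2 to 3 called activating enzymes, and kept 46 to 54 of the 58 calls. Usp14 was not called whichever array was left out, Usp4 not without MA 1, MA 2, control 2 or control 3, and Usp18 not without MA 1, MA 3, control 1 or control 3, while Uchl1 was called without MA 2. Same-numbered arrays deviated together with r of 0.20, 0.03 and 0.15, against -0.19 to 0.08 for arrays of different number. These few values do not settle whether the numbers pair the arrays, and the main fit did not pair them. With a replicate block 37 were higher and 21 lower, with 56 of 58 calls kept, Usp14 and Usp18 lost and 2 gained, Uchl1 among them. Small differences of probe sets near the background of 3.95 are the least certain.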
